A study of Mus musculus with 2 samples.

Results

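The genes described here are 37 genes of the lysosome, the acid compartment in which cells digest protein, carbohydrate and lipid. They comprise 9 peptidases, 7 glycosidases, 6 genes of lipid digestion and sterol export, 3 precursors of activator proteins and granulins, 5 genes of the lysosomal membrane, 4 subunits of the proton pump and the 3 transcription factors Tfeb, Tfe3 and Mitf. They were listed by name and role, with earlier results of these data known, and each probe was given to a gene through its RefSeq accession. All 37 were measured, out of 13848 genes with at least 1 probe well above background.

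The data are 2 single-color Agilent mouse arrays, 1 for control mice and 1 for heart-specific Bmal1 knockout (H-Bmal1-/-) mice. Each array was hybridized with Cy3-labeled cRNA made from the pooled left ventricular total RNA of 6 male mice aged 12 weeks, taken at ZT2, when ZT0 is lights on. The H-Bmal1-/- mice carried a floxed Bmal1 gene and a Cre transgene driven by the αMHC promoter, which is active in cardiomyocytes, so that the deletion is aimed at these cells and not at the other cells of the ventricle. The controls were littermates with the floxed gene and no Cre, although their label reads wildtype, and no group carried Cre alone. The comparison asks which transcripts differ in the ventricle when the clock factor BMAL1 is deleted in cardiomyocytes. The paper states that, with samples from ZT2 alone, differences might come from peaks or troughs of expression that moved in time. It also reports heavier hearts, lower fractional shortening and higher ANP and BNP in H-Bmal1-/- mice at this age. The part of either in the values below was not tested.

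Each genotype had 1 array, so that the differences have no replicate check, no test was made, and the spread between animals is not known. A level is the log2 processed signal minus the 75th percentile of its own array, and a ratio is the level in the knockout pool minus that in the control pool, on the log2 scale. A positive ratio therefore means a higher level in the knockout pool. The Bmal1 transcript, listed as Arntl, had a level of 1.58 in the controls and 0.79 in H-Bmal1-/- mice (ratio -0.80), from a single probe whose place relative to the deleted part is not known here. Nr1d1, a direct target of BMAL1, had a ratio of -2.09. The 10 cardiomyocyte markers had levels between 5.08 and 11.09 in the control pool, all far above the 75th percentile.

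Lysosomal hydrolases are made as precursors, carried to the lysosome, and work at the acid pH that the vacuolar ATPase maintains by pumping protons across the lysosomal membrane. LAMP proteins line that membrane, and transporters and channels in it release the products of digestion and calcium. The transcription factors TFEB, TFE3 and MITF bind the sequence TCACGTGA or parts of it, known as the CLEAR element, near the start of many lysosomal genes. Its core CACGTG is also the E-box to which CLOCK and BMAL1 bind. In the heart, lysosomes take up worn mitochondria and proteins delivered by autophagy, and loss of single enzymes or membrane proteins, such as acid α-glucosidase or LAMP2, causes cardiomyopathy in humans.

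Because the factors of the clock and of lysosomal control share this core, the promoter stretches that hold it are shown before the values. Promoters were windows from 250 bases before to 50 bases after each annotated start in RefSeq (GRCm38.p6), available for 32 of the 37 genes. CACGTG, which reads the same on both strands, lay in the window of 10 of the 32 genes (31.25%), against 8.09% of 27025 genes of the promoter table and 11.3% of the 11016 of them measured on the arrays. TCACGTG, which contains CACGTG and was searched on both strands, lay in 9 of the 32 (28.1%), against 4.29% of all genes of the table and 6.64% of the measured ones. In each line the capitals mark the core with the flanking T and A where these are present, and the number after the gene is the position of the first C of the core relative to the annotated start. All run 5′ to 3′ along the gene.

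Lamp1 at -61 (chr8:13159080-13159125, plus strand): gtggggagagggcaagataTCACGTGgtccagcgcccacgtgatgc
Lamp1 at -15 (chr8:13159126-13159171, plus strand): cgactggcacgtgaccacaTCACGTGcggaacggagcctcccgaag
Mcoln1 at -45 (chr8:3500454-3500499, plus strand): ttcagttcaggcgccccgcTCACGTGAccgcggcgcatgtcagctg
Ctsa at -12 (chr2:164833741-164833786, plus strand): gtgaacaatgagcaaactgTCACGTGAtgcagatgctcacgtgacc
Ctsd at -98 (chr7:142387900-142387945, minus strand): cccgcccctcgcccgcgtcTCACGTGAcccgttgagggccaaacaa
Ctsl at -236 (chr13:64370731-64370770, minus strand): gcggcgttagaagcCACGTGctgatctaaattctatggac
Glb1 at -48 (chr9:114401010-114401055, plus strand): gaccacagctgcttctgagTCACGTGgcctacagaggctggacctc
Gaa at -140 (chr11:119267803-119267848, plus strand): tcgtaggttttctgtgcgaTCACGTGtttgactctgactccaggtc
Gla at -194 (chrX:134601174-134601219, minus strand): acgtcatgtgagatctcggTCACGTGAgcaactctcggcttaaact
Atp6v0d1 at -3 (chr8:105566042-105566087, minus strand): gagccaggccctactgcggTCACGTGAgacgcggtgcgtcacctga
Atp6v1a at -131 (chr16:44139365-44139410, minus strand): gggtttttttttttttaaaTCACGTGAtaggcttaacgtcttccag

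Lamp1 held 4 such cores and Ctsa, Ctsd, Mcoln1 and Gla held 2 each, which lie close enough in Lamp1 and Ctsa for a neighboring core to show in lower case. Ctsl was the only one of the 10 with the core but without the flanking T on either strand. The windows of the 4 lipid and sterol genes in the table, of the 3 activator precursors and of Tfeb, Tfe3 and Mitf held no CACGTG, which says only that these letters are not in this window. The 10 genes with the core had a median ratio of 0.17 with 7 above 0, and the 22 without it a median of 0.13 with 17 above 0. Over all measured genes the medians were 0.00 with the core (621 of 1241 genes above 0) and -0.02 without it (4703 of 9775 above 0). For TCACGTG the order was the other way. The 9 lysosomal genes with it had a median ratio of 0.13 with 6 above 0, and the 23 without it 0.14 with 18 above 0. Over all measured genes the medians were -0.02 with TCACGTG (348 of 731 genes above 0) and -0.01 without it (4976 of 10285 above 0). A match is a description of the letters and was not tested for binding.

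Of the 37 lysosomal genes, 27 were higher in the knockout pool and 10 were lower, whereas 48.3% of all measured genes were higher and 51.7% lower. The median ratio of the 37 genes was 0.14 (quartiles -0.01 and 0.27), beside a median of -0.01 (quartiles -0.20 and 0.18) over all genes. The sizes were small, with a median absolute ratio of 0.19 for the lysosomal genes and for all genes. At least 1.5-fold higher were Ctsk and Ctsz, 2 of 37 beside 6.16% of all genes, and at least 1.5-fold lower was Npc1, 1 of 37 beside 5.85%. At least 1.3-fold higher were 6 genes, the others being Atp6v1h, Ctsl, Atp6v0a1 and Gm2a, beside 11.5% of all genes, and 2 were at least 1.3-fold lower, Npc1 and Ctsh, beside 11.9%. Gm2a was past 1.3-fold only with a probe that was dim in the control pool, and had a ratio of 0.20 without it. At 1.5-fold both counts were thus near the share of all genes, and the larger gap to that share was in the count of genes above 0. In RNA of a whole ventricle, fewer cells of a type and less RNA per cell cannot be told apart.

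**Figure D1:**
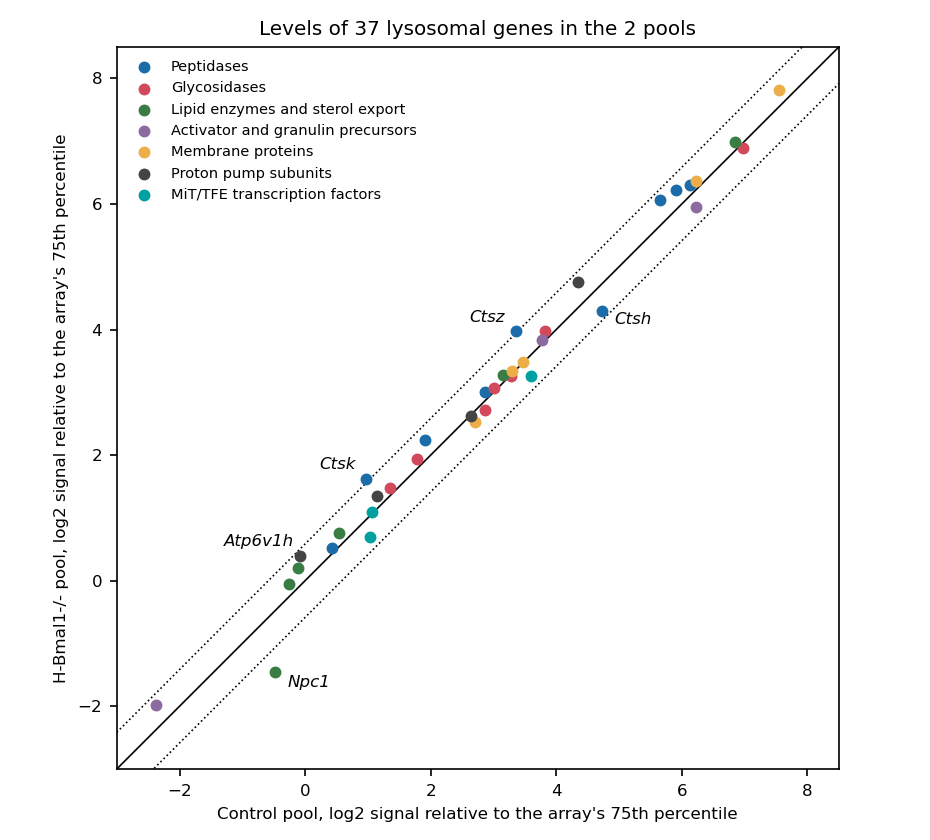
Level of each of the 37 lysosomal genes in control mice (x axis) and in H-Bmal1-/- mice (y axis), as log2 signal relative to the array's 75th percentile, colored by role. Most points lie just above the solid line of equal level, and Ctsk, Ctsz and Npc1 lie beyond the dotted lines that mark a 1.5-fold difference.

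The peptidases were the role with the most genes on one side. In the knockout pool 8 of 9 were higher, beside 48.3% of all genes, with a median ratio of 0.31. Ctsk, a cysteine cathepsin that cleaves collagen, had a processed signal of 335.8 in controls and 585.3 in H-Bmal1-/- mice. The knockout pool was higher by 1.57-fold after scaling (ratio 0.65), and the scanner's own error of that ratio was 0.20. Ctsz, a cysteine carboxypeptidase, had signals of 1756 and 2992 (ratio 0.62, 1.53-fold higher). Ctsl, the broad-acting cathepsin L, was 1.32-fold higher with signals of 8640 and 12704 (ratio 0.40).

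Ctsa and Ctsd each had a pair of probes, and all of these probes were higher in the knockout pool. Ctsa, a serine carboxypeptidase that also protects neuraminidase and β-galactosidase, had a ratio of 0.33 with probes at 0.25 and 0.40. Ctsd, the main aspartic protease of the lysosome, had a ratio of 0.31 with probes at 0.29 and 0.34, its level being 5.91 in controls and 6.22 in H-Bmal1-/- mice. The remaining higher peptidases differed by less than the scanner's error: Ctsb, cathepsin B, at 0.17, Ctss, cathepsin S of antigen-presenting cells, at 0.14, and Tpp1, which removes tripeptides from protein ends, at 0.10.

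Ctsh, an aminopeptidase of the same papain-like family, went the other way. Its signal was 4549 in controls and 3726 in H-Bmal1-/- mice, which is 1.36-fold lower after scaling (ratio -0.44, scanner error 0.20). It was the lone peptidase below 0, from a single probe.

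**Figure D2:**
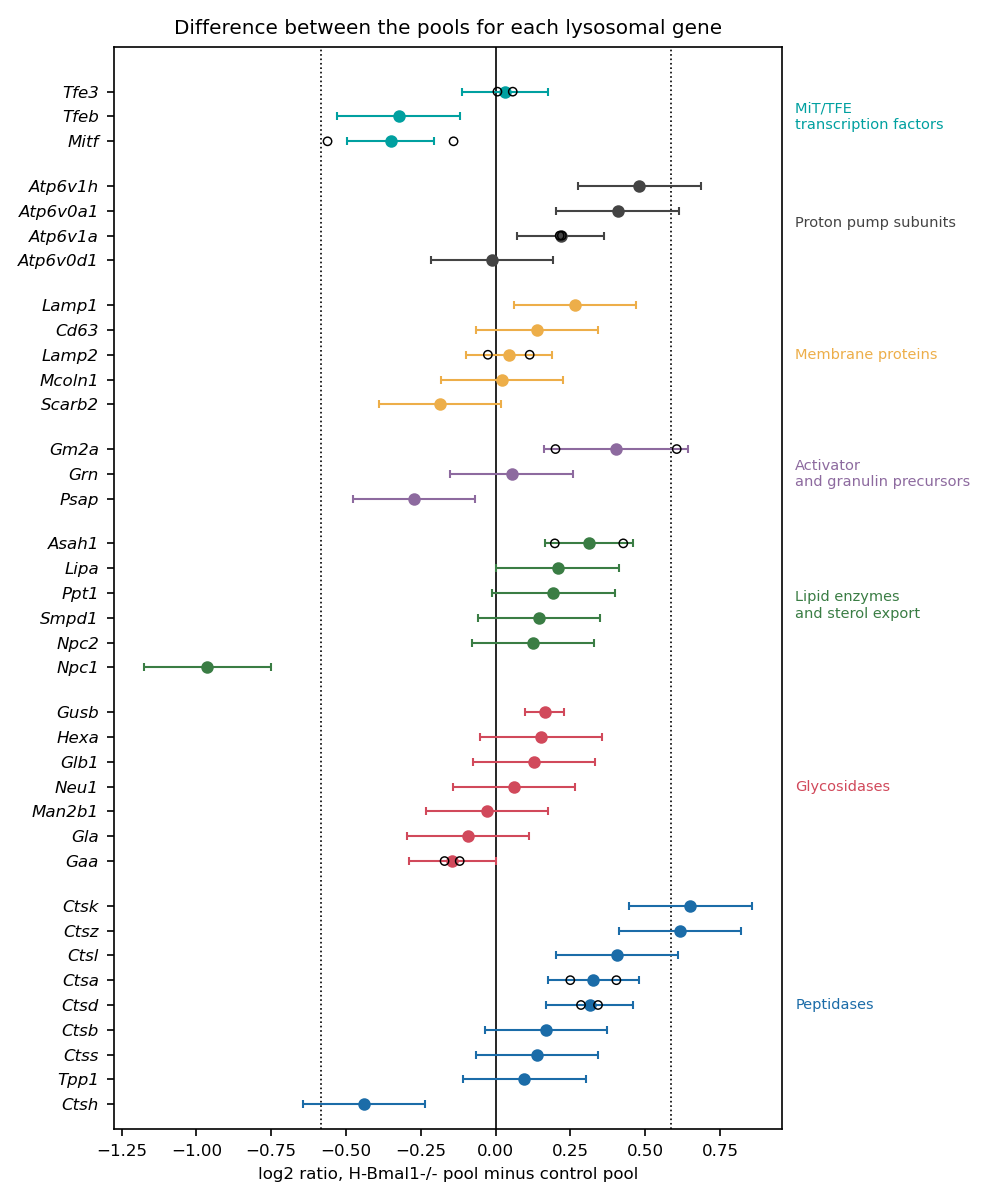
Log2 ratio of the H-Bmal1-/- pool to the control pool (x axis) for each lysosomal gene, grouped by role. Filled points are gene values, bars are the scanner's error of the ratio (not a spread between animals), open circles are single probes where a gene has more than 1, and dotted lines mark 1.5-fold. Ctsk (0.65) and Ctsz (0.62) lie beyond the right line and Npc1 (-0.96) beyond the left, while the 7 glycosidases lie between -0.15 and 0.16.

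The proton pump subunits had a median ratio of 0.31, like the peptidases, with 3 of 4 higher, beside 48.3% of all genes. Atp6v1h, the regulatory H subunit of the cytosolic V1 sector, had levels of -0.09 and 0.40 (ratio 0.48, 1.40-fold higher). Atp6v0a1, the a1 subunit of the membrane V0 sector, had signals of 3480 and 5125 (ratio 0.41). Atp6v1a, the catalytic A subunit that binds ATP, was higher by 0.22, and its probes gave 0.21 and 0.22. Atp6v0d1, the d subunit of the V0 stalk, had a ratio of -0.01, which is the smallest difference of the 37 genes and turned above 0 without scaling (0.14) and with the normexp background correction (0.044). Higher in the pool with the deletion were thus Atp6v1h and Atp6v1a of V1 and, of V0, Atp6v0a1 alone, which rests on 1 probe.

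Another 16 measured subunits and accessory proteins of the pump, of 20 listed, had a median ratio of 0.15. Of them 11 were higher and 5 lower, beside 48.3% and 51.7% of all genes. Of these, 1 was at least 1.5-fold higher, beside 6.16% of all genes, and none was 1.5-fold lower, beside 5.85%. It was the neuronal-type subunit Atp6v1g2 at 0.59, with signals of only 27.4 and 45.9. The next highest were the V0 subunit Atp6v0e (0.31) and the V1 subunit Atp6v1d (0.30). The lowest were Atp6v1e2 (-0.20), Atp6v0a2 (-0.13) and Atp6v1g1 (-0.10).

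The glycosidases differed little between the pools, with a median ratio of 0.06 and 4 of 7 higher, beside 48.3% of all genes. None was past 1.3-fold, beside 11.5% of all genes higher and 11.9% lower by that much. Gusb, β-glucuronidase, gave the most precise value because its probe was printed 10 times on each array. Its ratio was 0.16 ± 0.05 (SD over 10 spots of 1 array pair), with spots from 0.10 to 0.25, so that every spot was higher in the knockout pool. This SD is that of printing and scanning and holds nothing of the spread between animals.

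Hexa, which degrades ganglioside GM2 together with Gm2a, had a ratio of 0.15, Glb1, the acid β-galactosidase, 0.13, and Neu1, the lysosomal neuraminidase, 0.06. Gaa, which digests glycogen and is deficient in Pompe disease, had a ratio of -0.15 with probes at -0.17 and -0.12. Gla, the enzyme deficient in Fabry disease, had a ratio of -0.09 and Man2b1, the acid α-mannosidase, -0.03. The values of Gla and Man2b1 were within the scanner's error of 0.20, and that of Gaa was about the same size as its error of 0.15. Gaa, Gla and Man2b1 turned above 0 when the arrays were not scaled to each other (0.0060, 0.058 and 0.12).

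Among the genes of lipid digestion and sterol export, 5 of 6 were higher, beside 48.3% of all genes. The remaining one had the largest difference of all 37. That gene is Npc1, which moves cholesterol out of the lysosome. Its signal was 122.3 in controls and 69.7 in H-Bmal1-/- mice, 1.95-fold lower after scaling (ratio -0.96, scanner error 0.21), from a single probe that read below the 75th percentile of both arrays. With the normexp background correction the ratio was -0.55, which is less than 1.5-fold. Npc2, the soluble protein that hands cholesterol to NPC1, was not lower: its signals were 1523 and 1844, a ratio of 0.12.

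The other lipid genes had ratios from 0.14 to 0.31. Asah1, acid ceramidase, was at 0.31 with probes at 0.20 and 0.43. Lipa, the acid lipase of cholesteryl esters and triglycerides, was at 0.21, Ppt1, which strips palmitate from proteins, at 0.19, and Smpd1, acid sphingomyelinase, at 0.14. Of these, Asah1 alone exceeded its scanner error by more than 2 times, and that error is smaller because it is averaged over 2 probes.

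The 3 precursors differed in direction. Psap, the precursor of the saposins that present sphingolipids to their enzymes, had signals of 12780 and 11745 (ratio -0.27). Grn, the precursor of progranulin-derived peptides, had a ratio of 0.05. Gm2a, the GM2 activator, had a ratio of 0.40, which rests on probes that differ in quality. The brighter probe read 111.5 and 142.2 (ratio 0.20), and the other read 9.74 and 16.4 and was above background only in the latter.

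Of the membrane genes, 4 of 5 were higher, beside 48.3% of all genes, and the median ratio was 0.04. Lamp1, one of the major glycoproteins of the lysosomal membrane, had signals of 32085 and 42850 (ratio 0.27), and Cd63, a tetraspanin of late endosomes and lysosomes, had a ratio of 0.14. Lamp2, the other major glycoprotein and a receptor of autophagy in one of its isoforms, was the only gene of the 37 whose probes fell on both sides of 0. They match different RefSeq transcripts and gave -0.03 and 0.11, both within the scanner's error, so that the brightest probe alone puts the gene below 0. Mcoln1, the lysosomal calcium channel, was at 0.02. Scarb2, a membrane glycoprotein also known as LIMP-2, was at -0.19.

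Tfeb and Mitf were lower in the knockout pool and Tfe3 was nearly level. Tfeb had signals of 348.6 and 309.2 (ratio -0.32, 1.25-fold lower). Mitf had a ratio of -0.35, and its probes differed from each other at -0.56 and -0.14. Tfe3 had a ratio of 0.03 with probes at 0.01 and 0.06. These are levels of mRNA, and the arrays do not measure where in the cell the proteins are, which is how TFEB and TFE3 are mainly controlled.

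Genes by which the lysosome controls TFEB through mTORC1, calcineurin and folliculin were listed separately, and all 22 were measured. They had a median ratio of -0.07, with 9 higher and 13 lower, beside 48.3% and 51.7% of all genes. The highest was Rheb, the activator of mTORC1, at 0.61, but its 3 probes ranged from -0.11 to 1.92. Next were the Rag GTPase Rragd (0.44) and Lamtor1, the membrane anchor of the Ragulator complex (0.15). Rragb and Tsc2 did not read well above background on the knockout array. Rragb was 1.76-fold lower when set against the lowest level well above background on that array. Tsc2 was 1.62-fold lower when set against its own dim reading, and neither fold is a firm minimum. Signals in the control pool were only 17.5 and 18.6. Zkscan3, reported as a repressor of lysosomal genes, was at -0.47.

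Hydrolases and membrane proteins outside the 37 were listed as well. Of 30 measured hydrolases, of 32 listed, 20 were higher and 10 lower, beside 48.3% and 51.7% of all genes, with a median ratio of 0.07. At least 1.5-fold higher was 1 of them, beside 6.16% of all genes, and none was 1.5-fold lower, beside 5.85%. Arsg, a sulfatase of heparan sulfate, had signals of 62.5 and 166 (ratio 1.26, 2.39-fold higher). Arsb, another sulfatase, was dim in the control pool. Its knockout level was 0.38 above the lowest level well above background on the control array, on the log2 scale. Among the lowest were Ctsc, a dipeptidyl peptidase of immune cells (-0.43), and the cathepsin Ctso (-0.26).

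Of 19 measured membrane proteins outside the 37, of 21 listed, 15 were higher and 4 lower, beside 48.3% and 51.7% of all genes. Their median ratio was 0.11, and 2 were at least 1.5-fold higher, beside 6.16% of all genes. These were Abcb9, a peptide transporter, with signals of 1641 and 2782 (ratio 0.61), and Mcoln2, a channel related to Mcoln1. Mcoln2 was dim in the control pool, and its knockout level was 1.88-fold above the lowest level well above background on the control array. Mfsd8, mutated in a form of neuronal ceroid lipofuscinosis, was at 0.50. The lowest were the channel Tmem175 (-0.12), the cystine exporter Ctns (-0.07) and the amino acid sensor Slc38a9 (-0.06).

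Markers of other cells of the ventricle differed between the pools too, and their counts stand beside 48.3% of all genes higher and 51.7% lower. Of 10 fibroblast markers 9 were higher, with a median ratio of 0.57, from Postn (1.87), Col1a1 (0.90) and Lum (0.84) to Tcf21 (0.16), Ddr2 (0.13) and Thy1 (-0.09). Their summed level, as multiples of each array's 75th percentile, was 304 in controls and 451 in H-Bmal1-/- mice. Of 15 measured macrophage and monocyte markers 14 were higher, by a median of 0.09, and their sum was 72.8 and 77.2. Ccr2 (0.63), Fcgr1 (0.44) and Ly86 (0.29) were the highest of them, and Csf1r (0.03), C1qa (0.00) and Cd163 (-0.26) the lowest.

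Cardiomyocyte markers were lower for 9 of 10, with a median of -0.23 and a sum of 9226 and 8087. That median was -0.04 with quantile normalization, -0.01 with normexp and -0.08 without scaling. Tnni3 (-0.42), Pln (-0.41) and Ryr2 (-0.39) were the lowest and Tnnc1 (0.29) the highest. Endothelial markers were higher for 3 of 10 (median -0.11), smooth muscle and pericyte markers for 3 of 8 (-0.16), and lymphocyte, neutrophil and mast cell markers for 3 of 10 measured (-0.13). Cd68, itself a lysosomal protein of macrophages, was not measured. Lysosomal genes are expressed in all of these cells, and the part of cell makeup in the ratios of the 37 genes was not tested.

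**Figure D3:**
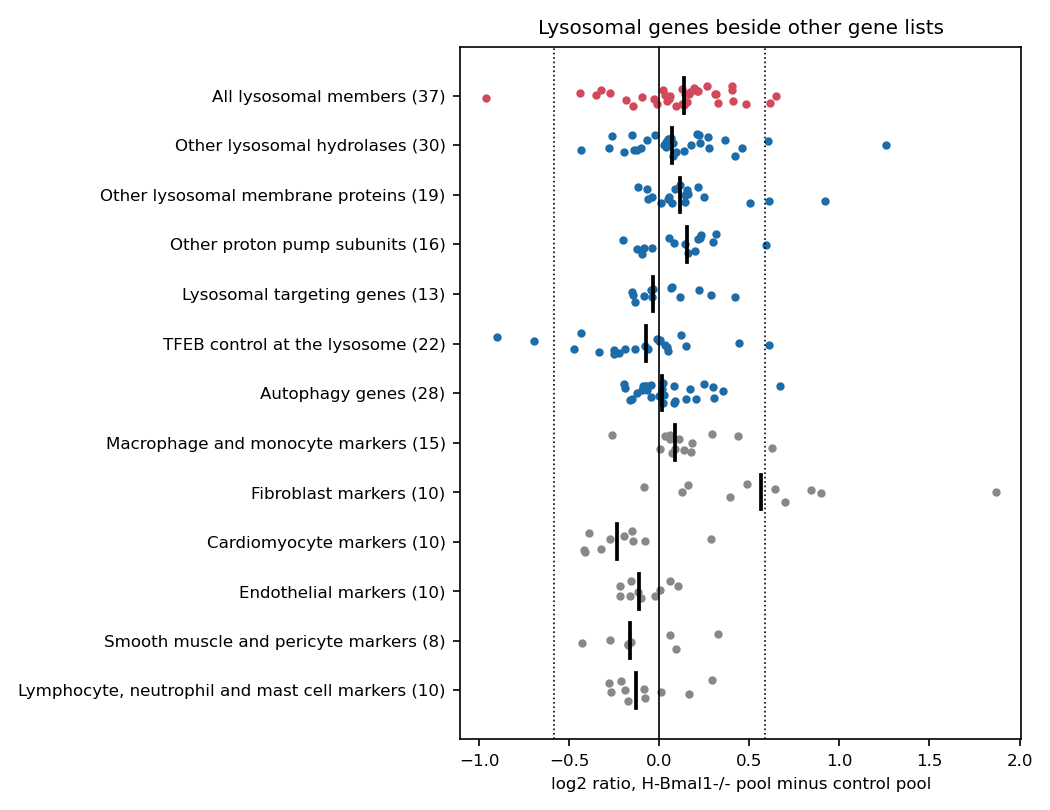
Log2 ratio of the H-Bmal1-/- pool to the control pool (x axis) for every measured gene of the lysosomal genes (red), of 6 other pathway lists (blue) and of 6 lists of cell type markers (gray), with the number of genes in parentheses. Black bars are medians and dotted lines mark 1.5-fold. The fibroblast markers have a median of 0.57 and the 37 lysosomal genes one of 0.14, and the cardiomyocyte markers have one of -0.23 with this scaling, which was -0.04 with quantile normalization.

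Of the 37 genes, 28 rested on 1 probe, and 45 of the 46 probes were well above background on both arrays. The scanner's error of a gene's ratio, which for all but the dimmest probes is close to a fixed share of the signal, ran from 0.06 to 0.24 with a median of 0.20. Measured instead from 247 probes printed 8 or more times, the SD of the ratio between spots had a median of 0.07. Of the 37 genes, 19 differed by more than their scanner error, 13 of them higher and 6 lower. This error was not computed for the other genes, so that these counts have no share of all genes beside them. The median absolute ratio was 0.19 for the 37 genes and also for all genes, which is near the median error. Genes of the 37 that differed by more than 2 times their error were 10. Of these, Ctsk, Ctsz, Gusb, Atp6v1h, Ctsd, Ctsa and Asah1 were higher and Npc1, Mitf and Ctsh were lower. The error takes spots and probes as independent, so it is smaller for genes with more of them, here Gusb, Ctsd, Ctsa, Asah1 and Mitf. Ctsl (ratio 0.40) and Atp6v0a1 (0.41), with 1 probe each, had larger differences than those genes and fell just short of 2 times.

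The sign of the ratio was the same for 32 of the 37 genes under 8 other ways of processing the arrays. Above 0 under all of them were 26 genes, and below 0 were Ctsh, Mitf, Npc1, Psap, Scarb2 and Tfeb. These ways are not independent checks. The authors' value table, rescaled here, repeats the reported ratios, and scaling to the median of bright probes shifts all genes by the same small amount. The filters on dim probes and the choice of the brightest probe cannot change the 28 genes with 1 probe. The same count of signs was not made over all genes. Without scaling, all genes shifted up by 0.15, 31 of the 37 were above 0 and 3 were at least 1.5-fold higher. The median ratio of all genes was then 0.14, so that most of all genes were above 0 too. Their share above 0 was not counted without scaling, so the 31 cannot be set against the share given with scaling. The split of all genes at 1.5-fold, 853 higher and 810 lower with scaling, was 1338 and 530 without it. Ctsz was the only one of the 37 that was at least 1.5-fold higher with the normexp correction, where Ctsk had a ratio of 0.56.

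**Figure D4:**
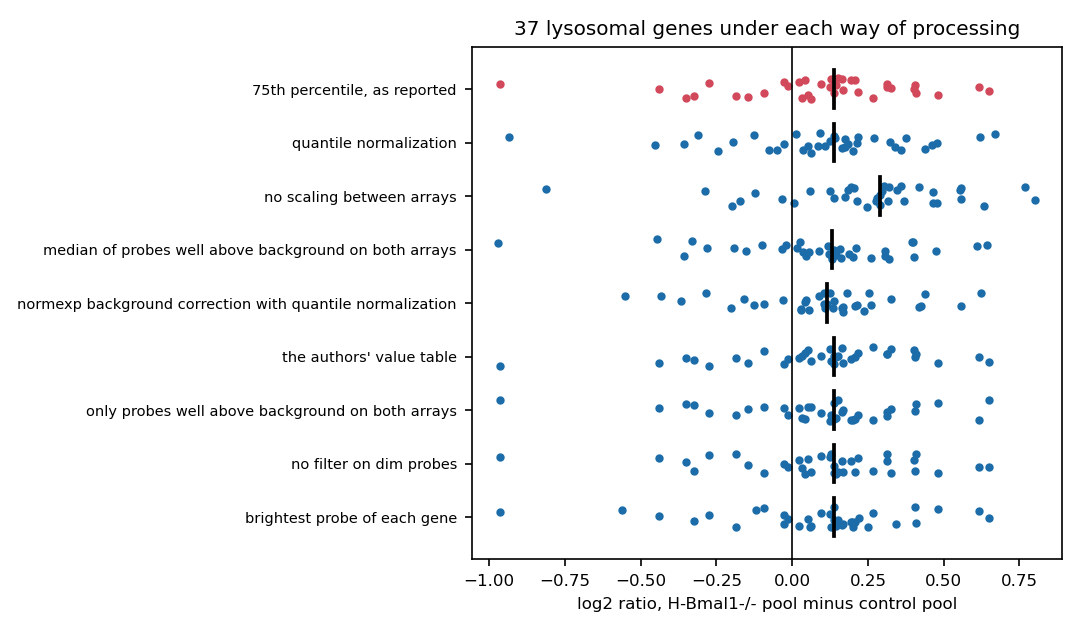
Log2 ratio of the H-Bmal1-/- pool to the control pool (x axis) of the 37 lysosomal genes, 1 point per gene, as reported (red) and under 8 other ways of processing (blue), with medians as black bars. The median is 0.14 as reported and 0.29 without scaling between arrays.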

How the data were processed

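The authors hybridized 1 pool of RNA per genotype to an Agilent SurePrint G3 Mouse array and obtained signal intensities with Feature Extraction (10.5.1.1 per the methods and processing notes, 10.10.1.1 per the file headers). The deposited processed signal is a linear intensity after subtraction of background and spatial trends, not scaled between arrays. The deposited value table was this intensity times 1 factor per array (on the log2 scale 2.45 in the controls and 2.31 in H-Bmal1-/- mice, with column medians of 67.2 and 64) and genes were not centered. The sources used here give no rule for the factor. The arrays shared 1 slide and 1 scan. Of 59305 noncontrol spots, 49.4% and 50.0% were well above background, none was saturated, and 269 with an outlier flag were left out.

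Log2 was taken and the 75th percentile of the array (171 for the control and 190 for the knockout) subtracted. The mean was taken over spots of 1 probe. A symbol was found for 26759 of 55676 probes through an unversioned accession in RefSeq (GRCm38.p6). A gene is the mean over those of its probes that at least 1 array measured well above background, which 13051 genes passed on both arrays and 797 on 1 only. The latter were counted at a bound, the bright level against the higher of the dim level and the lowest level well above background on that array. This is not a detection limit of the single spot. The scanner's error of each signal was carried to the ratio, with the errors of spots and probes taken as independent. Depth has no meaning for arrays, and their number, 1 per group, limits the precision.

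The members and the 6 pathway and 6 marker lists were chosen with earlier results of these data known. Named were all members, Arntl and Nr1d1, and up to 3 highest and 3 lowest genes of each other list, of which those of the endothelial, smooth muscle and lymphocyte lists are given as counts and medians only. A few genes under this rule are left out of the text. Fold thresholds were 1.5, with 1.3 and 2 as alternatives. Other alternatives were quantile normalization, no scaling, scaling to the median of probes that both arrays measured, normexp (offset 50, on the median signal, since the arrays' mean signal is not used here) with quantile normalization, the authors' value table, other filters on dim probes and the brightest probe of a gene. The scaling, the gene summary and the fold count were tested on simulated data, with changes added to genes well above background. The bound for dim genes, the scanner's error, normexp and the promoter search were not part of that test. The tools were R 4.3.3, limma 3.58.1, Python 3.11.15, pandas 2.3.3, numpy 2.4.6 and matplotlib 3.10.9.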

Additional observations from a re-analysis of the deposited data

How the results depend on the processing

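No paired analysis was possible because each genotype has 1 array, and for the same reason no array could be left out or blocked. Without scaling, the median ratio of all genes was 0.14, that of the 37 lysosomal genes 0.29, of the peptidases 0.46, the glycosidases 0.21, the lipid genes 0.32, the precursors 0.20, the membrane genes 0.20, the proton pump subunits 0.46 and the MiT/TFE factors -0.17. The other hydrolases then had a median of 0.22, the other membrane proteins 0.27, the other pump subunits 0.30, the targeting genes 0.12, the genes of TFEB control 0.080 and the autophagy genes 0.17. The targeting and TFEB control medians thereby changed sign, as did Gaa (0.0060), Gla (0.058), Man2b1 (0.12), Atp6v0d1 (0.14) and the medians of the endothelial markers (from -0.11 to 0.041) and of the lymphocyte, neutrophil and mast cell markers (from -0.13 to 0.022). All of these moved up by the 0.15 that scaling removes.

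At 1.5-fold, 1338 of all genes were higher and 530 lower without scaling, 349 and 249 with normexp, and 1470 and 1616 with no filter on dim probes, where the median of all genes was -0.10. With normexp, 1 lysosomal gene was at least 1.5-fold higher and 0 were lower, and the peptidase median was 0.24. At 1.3-fold, 6 lysosomal genes were higher and 2 lower, and 1594 and 1642 of all genes. At 2-fold these were 0 and 0, and 334 and 285. Npc1 ranged from -0.97 to -0.55, Ctsk from 0.56 to 0.80 and Ctsz from 0.61 to 0.77 over the 8 alternatives. The median of the cardiomyocyte markers, -0.23 as reported, was -0.039 with quantile normalization, -0.015 with normexp and -0.083 without scaling. Gm2a was at 0.20 without its dim probe. The cause of the shifts with normexp was not tested.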

Other observations

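Genes that deliver enzymes to the lysosome and genes of autophagy had medians near that of all genes. All 13 targeting genes were measured, with a median ratio of -0.03. In the knockout pool 6 were higher and 7 lower, beside 48.3% and 51.7% of all genes. The highest were the retromer subunit Vps29 (0.42, probes at 0.38 and 0.46), Sumf1, which activates sulfatases (0.29), and the sorting receptor Sort1 (0.22), whose probes gave -0.18 and 0.62. The lowest were the adaptor Gga1 (-0.15), the retromer subunit Vps26a (-0.15) and Gnptab, which begins the mannose 6-phosphate tag (-0.14). TCACGTG lay in the promoter window of 6 of 10 targeting genes with a window, 6 of 19 genes of TFEB control, 4 of 18 other membrane proteins, 5 of 24 other hydrolases, 3 of 22 autophagy genes and 2 of 15 other pump subunits, beside 6.64% of measured genes.

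All 28 autophagy genes were measured, with a median of 0.02 and with 15 higher and 13 lower, beside 48.3% and 51.7% of all genes. Sqstm1, the cargo receptor p62, had signals of 1915 and 3379 (ratio 0.67, 1.59-fold higher). It was the only one of the 28 at least 1.5-fold higher, beside 6.16% of all genes, and none was 1.5-fold lower, beside 5.85%. Atg13, of the initiating kinase complex, was at 0.35 and Becn1, of the lipid kinase complex that follows it, at 0.31. The lowest were Atg10 (-0.19), the kinase Ulk1 (-0.19) and Rab7, the small GTPase of late endosomes (-0.16).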
